A study of Mus musculus with 16 samples.

Results

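The 33 genes described here are genes of natural killer (NK) cells and cytotoxic lymphocytes. Each gene was read from the probe set annotated to that gene alone, and from the brightest one where a gene had several. All 33 were measured, each by 1 probe set, among 19938 genes measured in all. By role they are 13 receptors of NK and cytotoxic cells, 5 receptors for cytokines or lipids, 6 genes of cytotoxic granules and the death ligand Fasl, 5 genes for chemokines and interferon gamma, and 4 genes for intracellular factors.

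NK cells kill without a rearranged antigen receptor. Inhibitory receptors that read MHC class I and activating receptors that read stress ligands set their response, and the killing itself uses perforin to let granzymes into the target cell. Eomes and Tbx21 (T-bet) are the T-box transcription factors of this lineage, interleukin 15 sustains it through the receptor chain Il2rb, and activated NK cells release Ccl3, Ccl4, Ccl5, Xcl1 and interferon gamma. Many of these genes are shared with CD8 T cells and innate lymphoid cells, and Cd2 is also carried by B-lineage cells of the mouse. NK cells develop in the bone marrow, the tissue sampled here.

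Bone marrow RNA of mice was measured on 16 arrays in a study that, by its title, asked whether Bank1 restrains leukemia of B cell precursors. The arrays comprised 6 of leukemic marrow from mice heterozygous for Bank1 and for Pax5 (Bank1+/- and Pax5+/-, here Bank1Pax5), 6 of leukemic marrow from mice heterozygous for Pax5 alone (Pax5+/-, here Pax5), and 4 of pro-B and pre-B cells from wild-type (WT) marrow. Both leukemia groups thus carry 1 altered Pax5 allele, and their tissue is labelled total bone marrow, whereas the WT tissue is a B cell precursor fraction. Leukemia and the marrow fraction therefore cannot be told apart in a comparison with WT. The design text speaks of 3 WT mice and the labels of 4 WT arrays, and the cell type field of the WT arrays also reads leukemic. Strain, age, sex, the way the alleles were made, the method of cell isolation and hybridisation batches are not stated in the labels used, and the animals were kept in a conventional facility.

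Values are log2 probe set intensities, so a difference of 1 is a doubling. A group mean below 7.01, the median of the mean levels of all named probe sets, is called dim. Medians of the arrays ran from 6.58 to 6.71. Array pairs within a group correlated over genes at 0.9915 to 0.9953 in WT, 0.968 to 0.9824 in Pax5 and 0.9438 to 0.9874 in Bank1Pax5, and the median SD of a gene was 0.087, 0.159 and 0.18. Replicates thus varied more in both leukemias than in WT. Pax5 lay at 11.85 to 12.12 in WT, 7.52 to 12.21 in Pax5 and 7.85 to 11.85 in Bank1Pax5. Bank1 lay at 9.0 to 9.26, 8.80 to 11.09 and 7.26 to 9.52. Xist, which female cells express, was at 12.51 to 12.69 in WT, 5.82 to 9.96 in Pax5 and 5.83 to 12.81 in Bank1Pax5. The Y-linked gene Eif2s3y was at 4.58 to 4.63 in WT, 4.59 to 9.80 in Pax5 and 4.54 to 10.09 in Bank1Pax5. No Pax5 array reached the WT level of Xist. In Bank1Pax5 the lowest Xist value was also far below WT and the highest Eif2s3y value far above it. Eif2s3y was as low as in WT on at least 1 array of each leukemia group, so low Xist alone does not give the sex of an array. These sex-linked levels thus differ along with leukemia and the marrow fraction in both comparisons with WT, and the part of sex was not tested.

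The promoters of 25 of the 33 genes were read from RefSeq on GRCm38.p6, as the 250 bases before the transcript start. Motif letters were searched on both strands: T-box GGTGTGA, RUNX TGTGGT, STAT TTCNNNGAA and ETS AGGAAG, the binding letters of factor families known in NK cells. T-box and RUNX letters can overlap each other, as can STAT and ETS letters. In these 25 windows no matches of different motifs did, and 2 ETS matches of Klrb1c overlapped. RUNX letters were in 12 of the 25 windows (48.0%), against 14.2% of the 27025 genes with a window. ETS letters were in 11 (44.0%, against 29.2%), T-box letters in 4 (16%, against 3.31%) and STAT letters in 3 (12.0%, against 7.18%). RUNX letters were in 5 of 12 windows of genes called lower in both leukemia groups, in 4 of 6 of those called lower in Pax5 alone, and in 3 of 7 of those called in neither. A match is a description of the letters only.

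The windows below, picked after the matches were seen, show a receptor, 2 granule proteases, a granule protein, a chemokine and a transcription factor. Their calls against WT were not the same: Ncr1, Xcl1 and Eomes were called lower in both leukemias, Gzma and Nkg7 in Pax5, and Gzmb in neither. The genes were not tested against each other. The Xcl1 call in Bank1Pax5 and the Nkg7 call in Pax5 did not hold in every fit. Gzmb was called lower in Pax5 with only Pax5 and WT in the fit. Capitals mark motif matches, and each line reads from 5′ to 3′ on the strand of the gene.
Ncr1: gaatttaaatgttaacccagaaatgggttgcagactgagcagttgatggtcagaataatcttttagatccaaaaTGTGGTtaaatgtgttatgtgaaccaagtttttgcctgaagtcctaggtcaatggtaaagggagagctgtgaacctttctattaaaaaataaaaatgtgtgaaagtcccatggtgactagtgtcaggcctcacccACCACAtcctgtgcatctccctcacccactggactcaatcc
Gzma: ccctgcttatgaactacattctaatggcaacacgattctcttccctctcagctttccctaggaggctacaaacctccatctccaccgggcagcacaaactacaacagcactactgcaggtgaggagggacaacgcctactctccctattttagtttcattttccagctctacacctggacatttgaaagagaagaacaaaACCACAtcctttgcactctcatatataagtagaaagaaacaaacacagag
Gzmb: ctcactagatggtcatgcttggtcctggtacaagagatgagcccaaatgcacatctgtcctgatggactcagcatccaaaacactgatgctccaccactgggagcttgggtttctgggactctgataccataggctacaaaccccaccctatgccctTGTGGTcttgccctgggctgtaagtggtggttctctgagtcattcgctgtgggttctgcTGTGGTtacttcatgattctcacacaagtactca
Nkg7: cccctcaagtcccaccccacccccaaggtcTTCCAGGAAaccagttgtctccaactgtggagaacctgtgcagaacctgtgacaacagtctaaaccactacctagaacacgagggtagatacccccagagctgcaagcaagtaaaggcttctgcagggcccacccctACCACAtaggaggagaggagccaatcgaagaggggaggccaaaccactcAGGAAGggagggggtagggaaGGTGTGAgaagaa
Xcl1: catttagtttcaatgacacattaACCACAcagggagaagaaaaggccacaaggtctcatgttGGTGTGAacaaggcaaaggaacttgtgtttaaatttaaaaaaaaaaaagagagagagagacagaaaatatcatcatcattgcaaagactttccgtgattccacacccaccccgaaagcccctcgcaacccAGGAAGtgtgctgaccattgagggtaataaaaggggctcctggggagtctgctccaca
Eomes: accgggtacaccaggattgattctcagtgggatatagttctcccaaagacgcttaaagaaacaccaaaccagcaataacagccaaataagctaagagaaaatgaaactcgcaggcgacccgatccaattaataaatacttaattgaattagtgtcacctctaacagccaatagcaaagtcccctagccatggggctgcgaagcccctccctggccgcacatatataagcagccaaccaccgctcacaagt
The Ncr1 window lies at chr7:4337465-4337714 on the plus strand, with RUNX letters beginning 176 and 41 bases before the start. Gzma (chr13:113100982-113101231, minus strand) has RUNX letters 50 bases before it, and Gzmb (chr14:56262335-56262584, minus strand) has them at 93 and 34. Nkg7 (chr7:43436888-43437137, plus strand) holds all 4 motifs: STAT at 220, RUNX at 83, ETS at 34 and T-box at 13. Xcl1 (chr1:164935523-164935772, minus strand) holds RUNX at 227, T-box at 188 and ETS at 58. Eomes (chr9:118477939-118478188, plus strand) holds none of the letters searched.

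Of the 33 genes, 22 were lower in Pax5 leukemia than in WT precursors and 13 of these were also lower in Bank1Pax5 leukemia, among them Ncr1, Klra8, Prf1, Eomes and Tbx21. The median over the 33 genes on each array, here the shared level, was 8.07, 7.78, 7.29 and 7.17 on the 4 WT arrays. It lay between 5.92 and 6.18 on the Pax5 arrays, with a median of 6.05. On the Bank1Pax5 arrays 1 to 6 it was 6.29, 6.06, 6.64, 7.01, 6.94 and 8.03. The Pax5 arrays thus formed a narrow band (mean 6.04 ± 0.10 SD, n = 6) below all WT arrays (7.58 ± 0.42, n = 4). Bank1Pax5 arrays were spread from that band up to the WT range (6.83 ± 0.69, n = 6). The number of NK cells and the RNA per NK cell cannot be told apart in these values. Against WT, neither can be told apart from the marrow fraction.

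**Figure D1:**
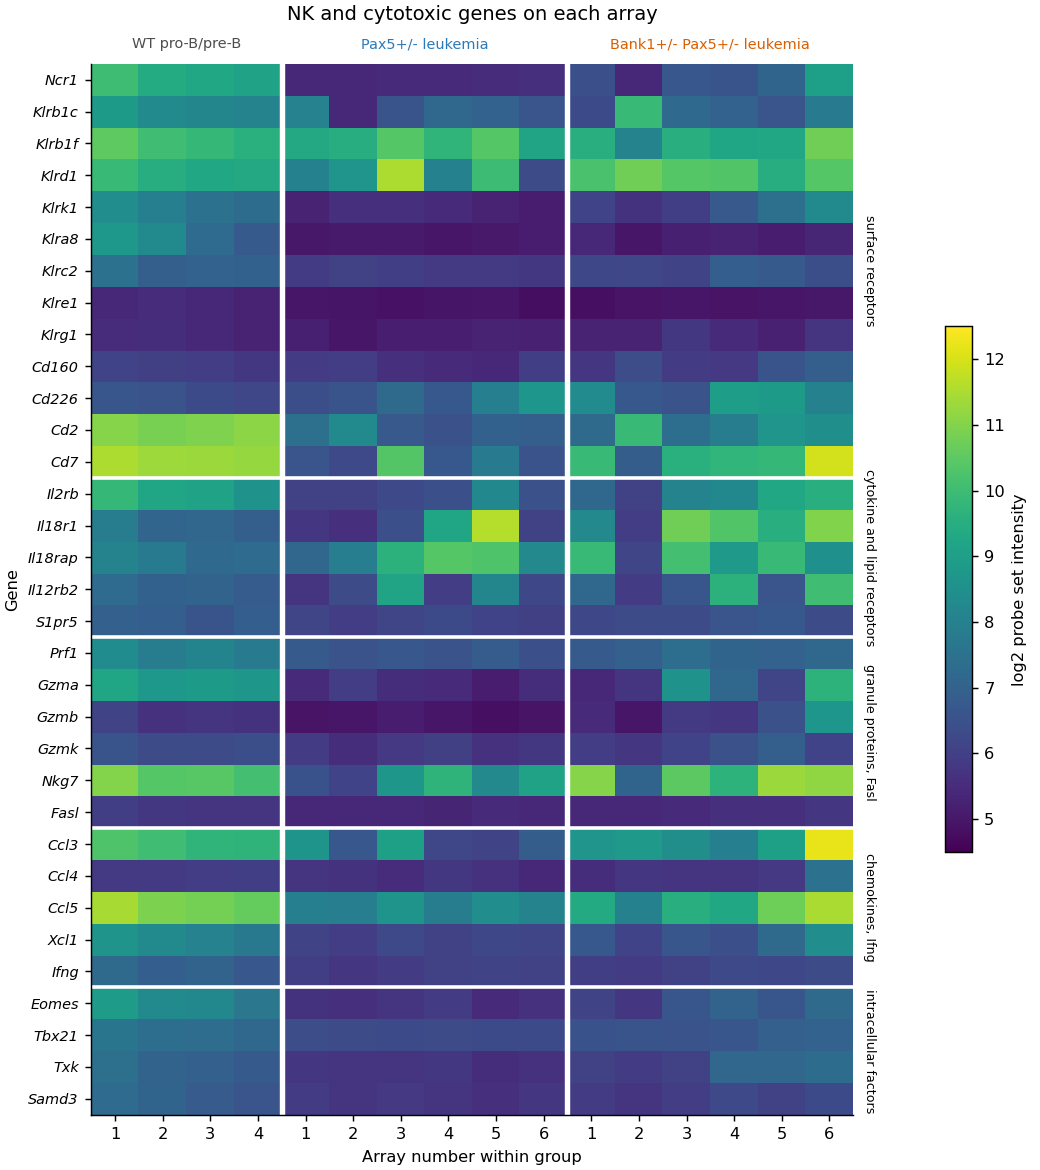
Log2 probe set intensity (colour) of each of the 33 genes (rows, ordered by role) on each of the 16 arrays (columns, numbered within group). Most rows are bright on the 4 WT arrays and dark on the 6 Pax5 arrays, and array 6 of Bank1Pax5 leukemia is the brightest leukemia array for 20 of the 33 genes.

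In Pax5 leukemia 22 of the 33 genes were lower than in WT and none was higher at an adjusted p under 0.05 (limma, Benjamini-Hochberg over all genes). At an unadjusted p under 0.05 the counts were 24 and 0. Over all genes 13.8% were called lower and 9.53% higher. The median difference of the 33 genes was -1.20, against -0.05 over all genes. Differences were below 0 for 30 of the 33, against 60.6% of all genes. Every Pax5 array lay below every WT array for 26 of the 33, against 13.2% of all genes. In Bank1Pax5 leukemia 13 were lower than in WT and none was higher, against backgrounds of 12.8% and 6.80%. The counts at an unadjusted p under 0.05 were 16 and 1. Without array 2 of Bank1Pax5 2 genes were called higher, Cd226 and Il18rap, and without array 3 of it Cd226 was. The median difference of the 33 genes in Bank1Pax5 was -0.66 (-0.03 over all genes). Every Bank1Pax5 array lay below every WT array for 10 of the 33, against 12.3% of all genes. Both comparisons share the 4 WT arrays. The number of genes with a dim group mean was 11 in WT, 23 in Pax5 and 18 in Bank1Pax5, and 10 were dim in all 3 groups.

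**Figure D2:**
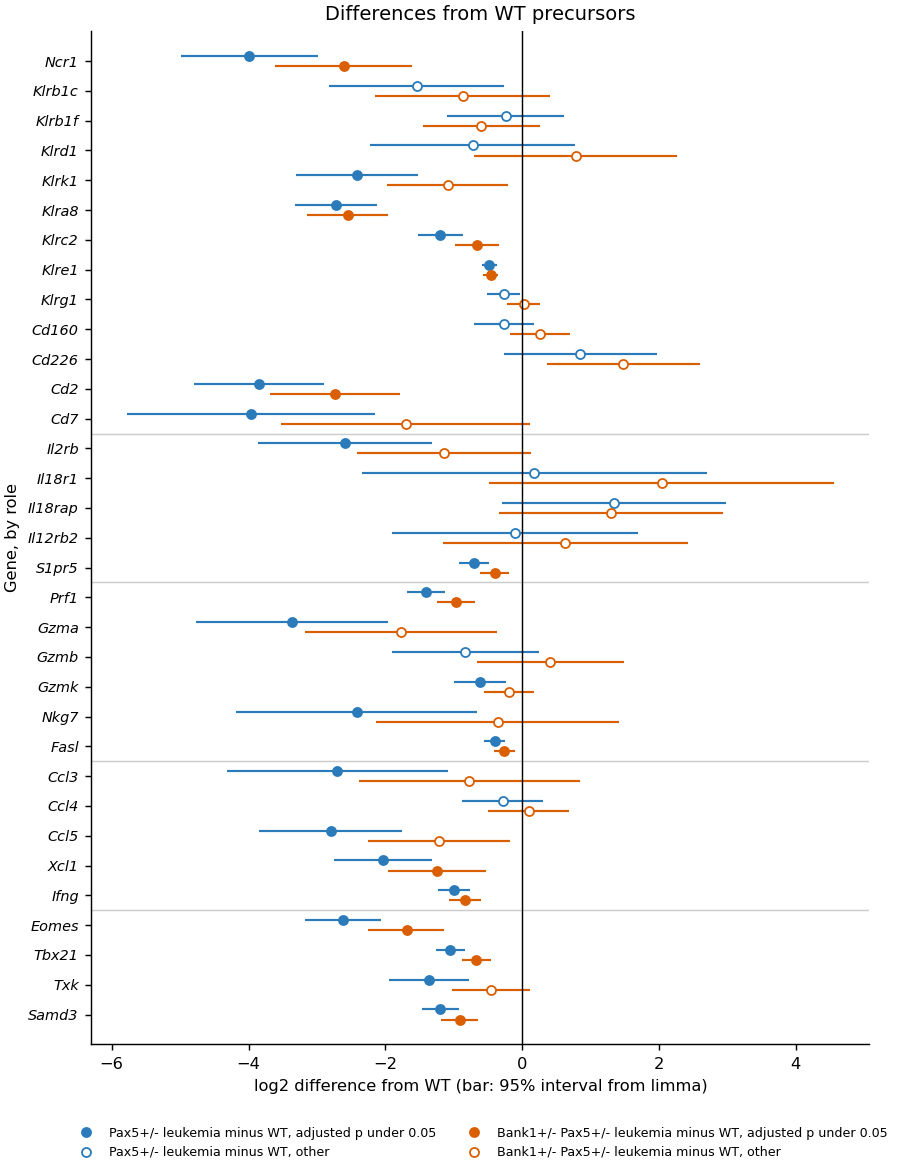
Log2 difference from WT of each of the 33 genes in Pax5 leukemia (blue) and Bank1Pax5 leukemia (orange), with 95% intervals from limma that are not adjusted for many genes. Filled points passed at an adjusted p under 0.05, and all 22 and 13 filled points lie to the left of 0.

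Among the 13 receptors of NK and cytotoxic cells, 7 were called lower in Pax5 leukemia and 5 in Bank1Pax5 leukemia. Ncr1, the natural cytotoxicity receptor NKp46 that marks NK cells, stood at 10.03, 9.42, 9.31 and 9.11 on the WT arrays. It lay between 5.43 and 5.59 on the Pax5 arrays, with a median of 5.45. On the Bank1Pax5 arrays it ran from 5.38 to 9.02, with a median of 6.63. No leukemia array reached the WT range, and array 6 of Bank1Pax5 came nearest to it. The difference was -3.99 (SE 0.47, adjusted p = 3.78e-05 by limma) in Pax5, 15.9-fold lower, and -2.61 (SE 0.47, adjusted p = 0.00126) in Bank1Pax5.

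Klra8, the activating Ly49H receptor, was 8.78, 8.29, 7.29 and 6.75 on the WT arrays. It lay at 4.98 to 5.12 (median 5.07) on the Pax5 arrays and at 4.98 to 5.39 (median 5.26) on the Bank1Pax5 arrays. Unlike Ncr1, it was thus low on all 12 leukemia arrays, including array 6 of Bank1Pax5 (5.35). The differences were -2.72 (SE 0.28, adjusted p = 1.28e-05 by limma) and -2.55 (SE 0.28, adjusted p = 2.41e-05).

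Klrc2, the activating NKG2C lectin, was 7.49, 6.92, 7.03 and 6.97 in WT. It ran from 5.81 to 6.05 (median 5.88) in Pax5 and from 6.14 to 6.90 (median 6.32) in Bank1Pax5. The 3 groups did not overlap, in the order WT, Bank1Pax5, Pax5, with differences from WT of -1.20 and -0.66 (SE 0.15 each).

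Cd2, an adhesion receptor of T, NK and B-lineage cells, was also lower in both leukemias. Its WT values were 11.05, 10.87, 10.95 and 11.10, against 6.48 to 8.33 (median 6.95) in Pax5 and 7.27 to 9.88 (median 8.17) in Bank1Pax5. No leukemia array overlapped WT, and the differences were -3.85 and -2.74 (SE 0.45 each). Its highest leukemia value was on array 2 of Bank1Pax5, the array with the lowest shared level of its group. Klrb1c and Klrd1 were also highest of their group on that array.

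Cd7, a receptor of T and NK cells, lay at 11.24 to 11.52 in WT. It fell by 3.96 in Pax5 (SE 0.85, adjusted p = 0.00391 by limma), although array 3 of that group reached 10.36. In Bank1Pax5 it ran from 6.85 on array 2 to 11.95 on array 6, and the difference of -1.70 was not called (adjusted p = 0.179). Klrk1, the activating receptor NKG2D, fell from 7.32 to 8.41 in WT to 5.14 to 5.57 in Pax5. It ran from 5.66 to 8.34 in Bank1Pax5, where the difference of -1.09 was not called (adjusted p = 0.0822, and 0.00608 without array 6). Klre1, a lectin-like receptor of NK cells, was dim in all 3 groups, and its calls rest on shifts of -0.48 and -0.46.

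The other 6 receptors were called in neither leukemia. Klrd1, the CD94 partner of the NKG2 receptors, was at 9.27 to 9.89 in WT and at 9.49 to 10.77 in Bank1Pax5. It ran from 6.36 to 11.51 in Pax5, the highest value being on array 3. Klrb1f, a lectin-like receptor, stayed bright everywhere, at 9.59 to 10.51 in WT, 9.17 to 10.40 in Pax5 and 8.08 to 10.77 in Bank1Pax5. Klrb1c, the NK1.1 antigen, was below all WT values (8.07 to 8.85) on every Pax5 array (5.43 to 8.04), with an adjusted p of 0.0757 (limma; 0.0392 without Pax5 array 1). Its highest value, 9.92, was on array 2 of Bank1Pax5, and without that array its difference from WT was called lower there (0.033). Cd226 (DNAM-1), which binds Pvr and Nectin2, had means of 6.42 in WT, 7.27 in Pax5 and 7.90 in Bank1Pax5. Its difference of 1.48 in Bank1Pax5 had an adjusted p of 0.0603, and of 0.0265 and 0.0237 without array 2 or 3. Klrg1, an inhibitory receptor, and Cd160 were dim in all 3 groups.

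The 8 Klr genes of the set lie on chromosome 6, and Klre1, Klrd1 and Klrk1 follow each other directly in the order of RefSeq genes. The calls of these 3 neighbours were not the same: Klre1 was called lower in both leukemias, Klrd1 in neither, and Klrk1 in Pax5. The genes were not tested against each other. In Bank1Pax5 the uncalled difference of Klrk1 (-1.09) was larger than the called one of Klre1 (-0.46). The Klra, Klrb1, Klrc, granzyme and Ccl3 with Ccl4 families contain related genes. The annotation gives each probe set used here to 1 gene, and hybridisation of related transcripts was not tested.

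The 5 receptors for cytokines and lipids showed no common direction. S1pr5, a sphingosine 1-phosphate receptor for leaving the marrow, was lower in both leukemias (-0.70 and -0.40, SE 0.10 each) but dim in all 3 groups. Il2rb, the shared chain of the interleukin 2 and interleukin 15 receptors, was at 8.61 to 9.84 in WT and at 6.07 to 8.22 (median 6.36) in Pax5. That difference was -2.59 (SE 0.60, adjusted p = 0.00608 by limma). In Bank1Pax5 it ran from 6.06 to 9.50 (median 8.16), and -1.14 was not called.

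The interleukin 18 and interleukin 12 receptor chains varied widely among leukemia arrays. Il18r1 lay at 6.92 to 7.89 in WT, at 5.58 to 11.61 (median 6.26) in Pax5 and at 5.94 to 10.99 (median 9.94) in Bank1Pax5. Only arrays 4 and 5 of Pax5 (9.22 and 11.61) lay above WT, whereas in Bank1Pax5 every array except array 2 did. Il18rap ran from 7.15 to 10.38 in Pax5 and from 6.18 to 10.10 in Bank1Pax5, against 7.24 to 8.07 in WT. Il12rb2 reached 9.16 on array 3 of Pax5 and 10.04 on array 6 of Bank1Pax5, against 6.84 to 7.31 in WT. None of these 3 genes was called in any comparison, with SEs of 0.69 to 1.18. Without array 2 of Bank1Pax5, Il18rap was called higher than WT (adjusted p = 0.0474 by limma).

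Among granule genes and Fasl, 5 of 6 were called lower in Pax5 leukemia and 2 of 6 in Bank1Pax5 leukemia. Prf1, the pore-forming perforin, was 8.39, 7.89, 8.10 and 7.76 in WT. It ran from 6.44 to 6.82 (median 6.61) in Pax5 and from 6.78 to 7.40 (median 7.05) in Bank1Pax5. Every leukemia array lay below every WT array. The differences were -1.40 (SE 0.13, adjusted p = 5.07e-06 by limma) and -0.97 (SE 0.13, adjusted p = 0.00012).

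Gzma, granzyme A, was at 8.72 to 9.22 in WT and fell by 3.37 in Pax5 (SE 0.66, adjusted p = 0.00205 by limma), where it lay at 5.14 to 5.94. On the Bank1Pax5 arrays 1 to 6 it was 5.38, 5.73, 8.60, 7.18, 6.17 and 9.68. Arrays 1 and 2 were thus at the Pax5 level and array 6 above every WT array, and -1.77 was not called (adjusted p = 0.0732, and 0.00541 and 0.0378 without array 6 or 3). Gzmb, granzyme B, was dim in all 3 groups. Every Pax5 array (4.84 to 5.13) lay below every WT array (5.65 to 6.14), and the difference of -0.83 had an adjusted p of 0.245, but of 0.000304 with only these 2 groups in the fit. Its value of 8.69 on array 6 of Bank1Pax5 stood above the other 15 arrays, which lay at 4.84 to 6.47.

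Nkg7, a protein of granule membranes, was at 10.11 to 11.03 in WT and at 6.10 to 9.69 in Pax5. Its call there (-2.42, SE 0.83, adjusted p = 0.0468 by limma) ended without any 1 WT array (0.0813 to 0.115) and without array 1, 2, 3 or 5 of Pax5 (0.0522 to 0.0911). In Bank1Pax5, 3 of 6 arrays lay above the highest WT value. Gzmk, a granzyme, fell by 0.62 in Pax5 while dim in all 3 groups, a call that ended without WT array 1 or 4 (adjusted p = 0.0613 and 0.0516). Fasl, which triggers death through Fas, was also dim throughout and fell by 0.40 and 0.26. The latter call ended without WT array 1 or 2 or Bank1Pax5 array 1 (adjusted p of 0.0964, 0.057 and 0.0506), with cyclic loess scaling (0.0853) and with only the 2 groups in the fit (0.0744).

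Of the 5 chemokine and cytokine genes, 4 were called lower in Pax5 and 2 in Bank1Pax5 leukemia. Xcl1, a chemokine that draws cross-presenting dendritic cells, was 8.65, 8.29, 8.04 and 7.72 in WT. It ran from 5.96 to 6.27 (median 6.16) in Pax5 and from 6.10 to 8.42 (median 6.67) in Bank1Pax5. Only array 6 of Bank1Pax5 entered the WT range. The differences were -2.04 and -1.25 (SE 0.34 each), and the second call (adjusted p = 0.0172 by limma) ended without WT array 1 (0.0645) and in the fit of these 2 groups alone (0.065).

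Ifng, interferon gamma, was 7.27, 6.89, 7.06 and 6.68 in WT. It lay at 5.78 to 6.13 (median 6.01) in Pax5 and at 5.93 to 6.32 (median 6.15) in Bank1Pax5, so every leukemia array was lower. The differences were -0.99 and -0.84 (SE 0.11 each), with all 3 group means dim. Unlike Xcl1, Ifng did not enter the WT range on array 6 of Bank1Pax5, although 6.32 there was its highest leukemia value.

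Ccl5, a chemokine stored by cytotoxic cells, fell by 2.80 in Pax5 (SE 0.49, adjusted p = 0.000894 by limma), from 10.60 to 11.45 in WT to 7.89 to 8.65. In Bank1Pax5 it ran from 8.0 to 11.47, and -1.22 was not called (adjusted p = 0.0943, and 0.0137 without array 6). Ccl3, a chemokine that macrophages also make, fell by 2.70 in Pax5 (SE 0.75, adjusted p = 0.0186), which ended without WT array 1 (0.0528). On array 6 of Bank1Pax5 it reached 12.22, above every WT array (9.71 to 10.31). Ccl4 was dim in all 3 groups.

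All 4 intracellular factors were lower in Pax5 leukemia and 3 of them in Bank1Pax5 leukemia. Eomes was 8.89, 8.31, 8.24 and 7.67 in WT. It ran from 5.49 to 5.89 (median 5.65) in Pax5 and from 5.77 to 7.26 (median 6.65) in Bank1Pax5, below WT on every leukemia array. The differences were -2.62 (SE 0.26, adjusted p = 1.01e-05 by limma) and -1.69 (SE 0.26, adjusted p = 0.000394).

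Tbx21 was 7.60, 7.40, 7.35 and 7.17 in WT, against 6.30 to 6.38 (median 6.33) in Pax5 and 6.53 to 7.03 (median 6.62) in Bank1Pax5. The 3 groups were separate, and the differences from WT were -1.05 and -0.67 (SE 0.10 each). Samd3, an intracellular protein with a SAM domain, was 7.29, 7.08, 6.81 and 6.61 in WT. Its leukemia values were 5.58 to 5.88 (median 5.74) in Pax5 and 5.72 to 6.29 (median 6.00) in Bank1Pax5, all below WT, with differences of -1.20 and -0.91 (SE 0.13 each) and all 3 group means dim. Txk, a Tec family kinase, was 6.76 to 7.45 in WT and 5.56 to 5.79 in Pax5, a difference of -1.36 (SE 0.27). In Bank1Pax5 arrays 1 to 3 lay at 5.88 to 6.07 and arrays 4 to 6 at 7.14 to 7.33, and the difference of -0.45 was not called.

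**Figure D3:**
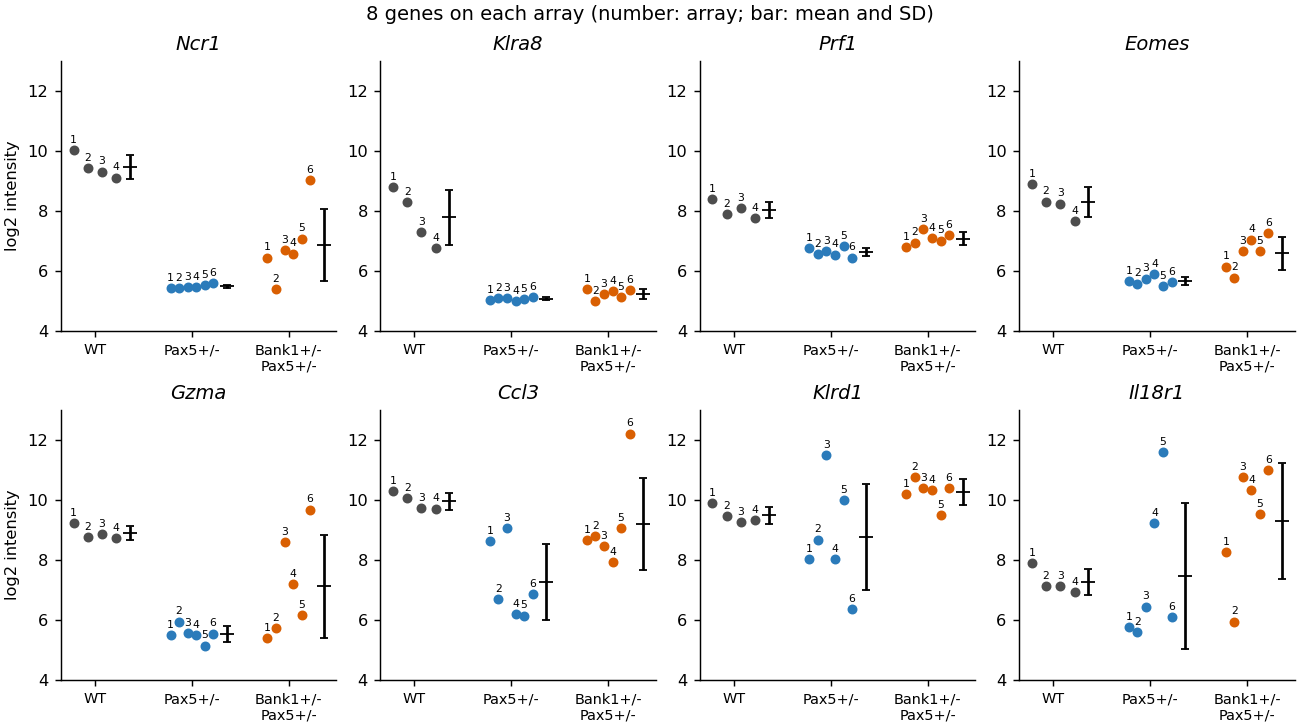
Log2 intensity of 8 of the genes on each array (points, numbered by array within group), with group mean and SD (bars). Klra8 stays between 4.98 and 5.39 on all 12 leukemia arrays, whereas Gzma and Ccl3 on array 6 of Bank1Pax5 reach 9.68 and 12.22, and Il18r1 lies above every WT value on 2 of 6 Pax5 arrays and 5 of 6 Bank1Pax5 arrays.

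Most calls against WT were also made in the alternative fits. In Pax5 leukemia 19 of the 22, all except Gzmk, Nkg7 and Ccl3, were also called under every alternative that gave them a value. In Bank1Pax5 leukemia 11 of the 13, all except Xcl1 and Fasl, were. With only Pax5 and WT in the fit, Gzmb, Klrb1c, Klrg1 and Ccl4 were called lower as well (adjusted p of 0.000304, 0.0198, 0.0179 and 0.0169 by limma). With only Bank1Pax5 and WT in it, Klrd1 was called higher (0.0399).

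The 2 leukemias were then compared directly. Of the 33 genes, 31 had a higher mean in Bank1Pax5 than in Pax5, against 55.1% of all genes, and the median difference was 0.67 (0.02 over all genes). Klrk1 (1.33), Klrc2 (0.53), Prf1 (0.44), Ccl5 (1.58), Eomes (0.92), Tbx21 (0.38) and Txk (0.91) were called higher and none was called lower (23 and 0 at an unadjusted p under 0.05). That is 7 of 33, against 1.71% of all genes called higher and 5.00% called lower, with adjusted p from 0.0237 to 0.0473 (limma). Groups did not overlap for 4 genes, Klrk1, Klrc2, Tbx21 and Txk, against 0.833% of all genes.

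These 7 calls do not hold in every fit. With only the 2 leukemia groups in the fit none of the 33 was called (23 higher and 0 lower at an unadjusted p under 0.05, adjusted p from 0.0501 to 0.106 for the 7), where 0.436% of all genes were called higher and 1.80% lower. Each of the 7 calls ended under at least 1 alternative. The count was 13 without array 2 of Bank1Pax5, 0 without array 5, 2 without array 4, 4 without array 6, and 10 without arrays 2 and 6 together. Leaving out Pax5 array 1, 2, 4 or 5 gave 2 calls each, and leaving out Pax5 array 6 gave 1. Ncr1 (1.38, adjusted p = 0.0635), Cd7 (2.26, 0.0924), Nkg7 (2.06, 0.112) and Gzma (1.60, 0.121) did not pass. Without array 2 of Bank1Pax5, Ncr1 (0.0156), Cd7 (0.0196), Nkg7 (0.0155), Il2rb (0.0243), Gzmk (0.0451) and Gzmb (0.0498) were called higher, and without array 6 Ncr1 (0.0382) and Gzmb (0.0455). Without array 3 of Pax5, Cd7 (0.0162) and Klrd1 (0.0186) were called higher, and without array 1 of Bank1Pax5 S1pr5 (0.0445).

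Genes differed in how far the arrays of Bank1Pax5 leukemia lay apart. Array 6 was the highest of the 12 leukemia arrays for 20 of the 33 genes, against 7.09% of all genes, and array 2 the lowest of its group for 19, against 14.0%. On array 6, Gzma (9.68), Gzmb (8.69), Ccl3 (12.22) and Ccl5 (11.47) were above every WT array. So were Nkg7 (11.18), Ccl4 (7.47) and the receptors Cd7 (11.95), Klrd1 (10.40), Klrb1f (10.77), Cd226 (8.03), Cd160 (6.91) and Klrg1 (5.74). The chains Il18r1 (10.99), Il18rap (8.50) and Il12rb2 (10.04) were as well. Xcl1 (8.42) was within the WT range, and Ncr1 (9.02) just below the lowest WT value of 9.11. Several other genes on the same array also stayed below every WT value. Among them were Klra8 (5.35), Klrc2 (6.41), Klre1 (5.02), Cd2 (8.49), Prf1 (7.19), Ifng (6.32), Eomes (7.26), Tbx21 (7.03) and Samd3 (6.29).

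By role, the median of the 13 NK and cytotoxic receptors was 7.32 to 8.78 in WT, 5.86 to 5.97 in Pax5 and 6.29 to 8.03 in Bank1Pax5. Granule genes with Fasl lay at 7.09 to 7.48, 5.55 to 5.76 and 5.71 to 7.94. Chemokines with Ifng lay at 7.72 to 8.65, 5.96 to 6.27 and 6.10 to 8.42, and the 4 factors at 6.97 to 7.52, 5.57 to 5.84 and 5.82 to 7.15. In these 4 roles every Pax5 array was below every WT array. The 5 cytokine and lipid receptors differed from this, at 6.92 to 7.89 in WT, 6.07 to 8.22 in Pax5 and 6.06 to 9.50 in Bank1Pax5, with the highest values in leukemia.

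**Figure D4:**
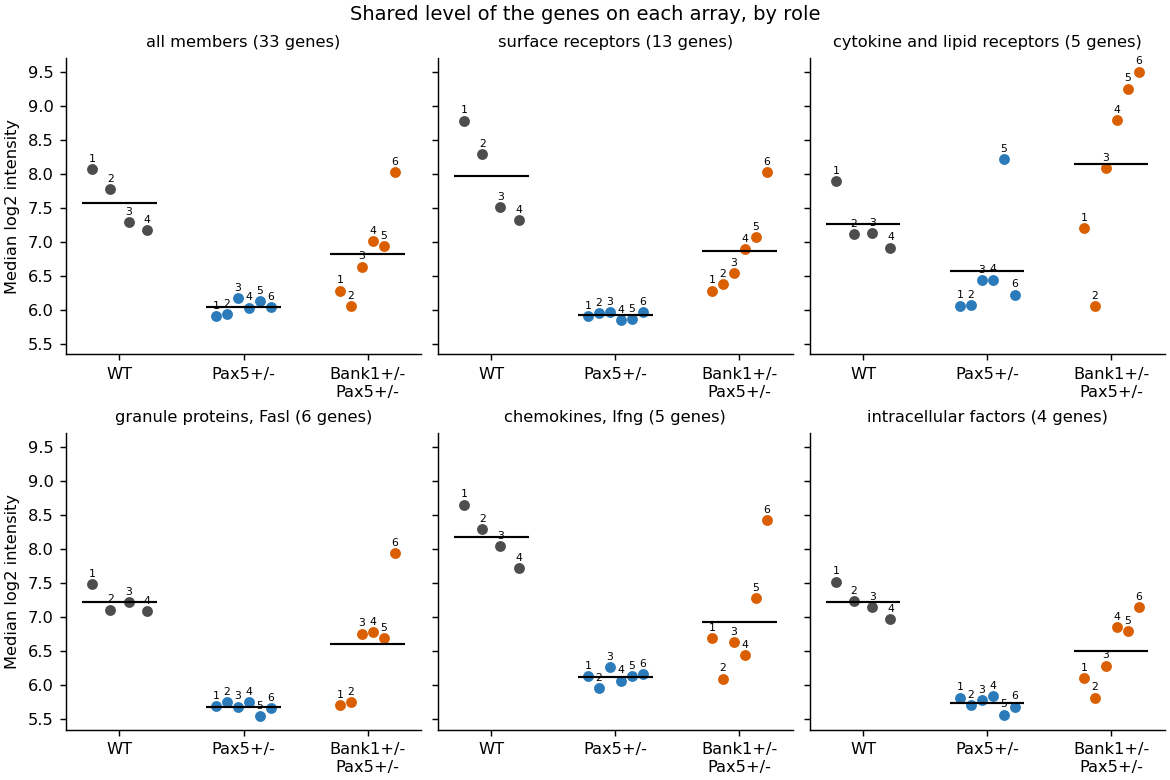
Median log2 intensity of all 33 genes and of each role on each array (points, numbered by array within group), with the group mean (line). Pax5 arrays lie below all WT arrays in every panel except cytokine and lipid receptors, where Pax5 array 5 reaches 8.22 and Bank1Pax5 arrays reach 9.50.

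Within WT the genes also moved together. WT array 1 was the highest of the 4 for 29 of the 33 genes, against 18.8% of all genes, and WT array 4 the lowest for 25, against 25.3%. The widest WT range among them was that of Klra8, 6.75 to 8.78. Neutrophil markers were high on the same side, with a mean over 11 genes of 9.97 and 9.84 on WT arrays 1 and 2 and 7.48 and 7.38 on arrays 3 and 4. Their part in the WT values of the NK genes was not tested.

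The labelled cell types were compared with marker lists. B cell precursor markers (14 of 15 measured) averaged 11.86 to 12.01 on the WT arrays, 8.64 to 11.66 on the Pax5 arrays and 8.71 to 11.59 on the Bank1Pax5 arrays. Of the 14, 2 were called lower in Pax5 (Dntt, Blnk), where 13.8% of all genes were. In Bank1Pax5 3 were called lower (Vpreb3, Ebf1, Cd79b), where 12.8% of all genes were. The WT arrays labelled as precursors thus had the highest precursor means, and Ncr1, Klra8 and Eomes were also highest there. This did not hold for all 33 genes. Every Pax5 array lay below every WT array for 26 of them, and every Bank1Pax5 array for 10. Klrb1c (9.92), Nkg7 (11.31) and Gzma (9.68) were highest on a Bank1Pax5 array, and Klrd1 (11.51) on a Pax5 array.

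T cell markers (13 of 14 measured) averaged 6.52 to 6.61 in WT, 6.26 to 6.68 in Pax5 and 6.42 to 7.18 in Bank1Pax5. Of these only Cd8a was called against WT, lower in Pax5 (-0.62), while 4 were called lower with only those 2 groups in the fit. Cd3d was dim in all groups (means of 5.65, 5.50 and 5.68). Cd3g and Cd8b1 were higher in Bank1Pax5 than in Pax5 (2.03 and 0.86), but no T cell marker was called with only these 2 groups in the fit (4 at an unadjusted p under 0.05). The T cell means of 7.07, 7.15 and 7.18 on arrays 4 to 6 of Bank1Pax5 were the highest of all arrays. Klrk1, Txk and the shared level were also highest among the leukemias on those 3 arrays. Other lists also differed on these arrays. B cell precursor means were 8.71, 9.76 and 9.45 on arrays 4 to 6 of Bank1Pax5, against 10.05, 11.59 and 11.34 on arrays 1 to 3. The dendritic cell mean of 8.90 on array 6 was the highest of all arrays. The part of T cells or of these other cells in Klrk1, Txk and the shared level was not tested.

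Of 3 further lists, 1 or 2 markers each were called lower in a leukemia, against 13.8% of all genes in Pax5 and 12.8% in Bank1Pax5. Plasmacytoid dendritic cell markers (9 of 11 measured) averaged 9.49 to 9.87 in WT, 7.80 to 10.19 in Pax5 and 8.05 to 9.89 in Bank1Pax5. Cd209d was lower in both leukemias (-2.66 and -2.46) and Upb1 in Pax5 (-1.12). Among dendritic cell markers (9 of 9 measured; 7.80 to 8.01, 6.73 to 8.03 and 6.58 to 8.90), Cd209a was lower in both (-2.95 and -2.47). Array 3 of Pax5, which had the highest plasmacytoid mean, also had the highest Cd7 and Klrd1 of its group. That array was also highest of its group for dendritic cell (8.03), neutrophil (11.87) and T cell (6.68) means. Its B cell precursor mean (8.64) was the lowest of the group. The part of any of these cells in Cd7 and Klrd1 was not tested. Among innate lymphoid markers (5 of 9 measured; 7.61 to 7.79, 7.01 to 7.42 and 7.29 to 7.73), Il17rb was lower in both (-0.83 and -0.69), while Rora and Gata3 were dim in all groups.

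Markers of other marrow cells were counted in the same way, against 9.53% of all genes called higher in Pax5 and 6.80% in Bank1Pax5. Monocyte and macrophage markers (12 of 14 measured) averaged 6.61 to 6.71 in WT, 8.09 to 8.97 in Pax5 and 8.26 to 10.49 in Bank1Pax5, with 7 and 11 genes called higher, among them Vcam1 (4.05 and 4.41). Megakaryocyte markers (6 of 9 measured) averaged 6.98 to 7.09, 8.80 to 11.05 and 9.32 to 11.37, with 4 and 5 called higher, among them Ppbp (6.37 and 6.84). Neutrophil markers (11 of 11 measured) averaged 7.38 to 9.97, 7.16 to 11.87 and 7.79 to 12.30, with none called at an adjusted or unadjusted p under 0.05. The part of these cells in the lower NK levels was not tested.

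Genes of the wider NK pathway outside the 33 were counted from 7 lists, with 92 of 108 genes measured. In Pax5 leukemia 19 were lower and 10 higher than in WT, and in Bank1Pax5 leukemia 12 were lower and 12 higher. These are 20.7% lower and 10.9% higher of the genes measured in Pax5, against 13.8% and 9.53% of all genes. In Bank1Pax5 they are 13% each, against 12.8% and 6.80%. Between the leukemias 1 was lower and 6 were higher in Bank1Pax5, of which 0 and 2 were called with only these groups in the fit. The counts called higher than WT rest partly on single WT arrays: without WT array 1, 3 or 4 they were 6, 4 and 4 in Pax5, and 7, 6 and 6 in Bank1Pax5. Between the leukemias, 10 were higher without array 2 of Bank1Pax5, and 3 without its array 5 or without array 1, 2 or 6 of Pax5.

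Further NK receptors (19 of 24 measured) had 8 lower and 1 higher in Pax5, and 5 lower and 1 higher in Bank1Pax5. Slamf7, an activating receptor of NK cells, was lower in both (-2.19 and -1.86), as were the lectins Klri2 (-2.10 and -1.89) and Klrb1a (-1.52 and -1.04). Klrc1, the inhibitory NKG2A, and Cd27 were lower in Pax5 (-1.97 and -1.89) and not called in Bank1Pax5 (-0.44 and -0.30). Fcgr3, the antibody receptor CD16 that myeloid cells also carry, was higher in both (1.76 and 2.61).

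Adaptors and proximal signalling genes (15 of 17 measured) had 2 lower and 2 higher in Pax5, and 1 lower and 2 higher in Bank1Pax5. Syk, a kinase shared with B cells, was lower in both (-1.44 and -1.50), and the adaptor Lat2 was higher in both (1.26 and 1.27). The adaptor Sh2d1a was lower in Pax5 (-0.56, dim in all groups), and its relative Sh2d1b1 was higher in Bank1Pax5 (2.48). Plcg2 was higher in Pax5 (0.48). Among 13 of 15 measured development factors, Ets1 (-0.88 and -1.13) and Zeb2 (-1.27 and -1.18) were lower in both and Ikzf2 in Pax5 (-0.88). Both Ets1 and Zeb2 are expressed in B-lineage cells as well.

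Of the pathway of interleukins 15, 12 and 18 (11 of 13 measured), Il15 was lower in Pax5 (-0.92) and the inhibitor Il18bp higher (0.35). In Bank1Pax5 the kinase gene Jak1 was lower (-0.28) and Il18 higher (1.68). Further granule and release genes (16 of 16 measured) had 3 lower and 1 higher in Pax5 and 2 lower and 2 higher in Bank1Pax5. Granzyme M (Gzmm, -0.34 and -0.27) and the serpin Serpinb9b (-0.43 and -0.47) were lower in both and dim throughout. The lysosomal membrane protein Lamp1 was higher in both (0.65 and 0.92). Srgn, the granule proteoglycan, was lower in Pax5 (-0.23), and Gzmc was higher in Bank1Pax5 (0.23, dim in all groups).

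Ligands of NK receptors (10 of 14 measured) had 1 lower and 4 higher in each leukemia. Pvr, a ligand of Cd226, was higher in both (1.01 and 0.76), as was Cd48, the ligand of Cd2 in the mouse (0.76 and 0.62). Cdh1, the ligand of Klrg1, was lower in both (-1.12 and -0.80). The NKG2D ligand H60b was higher in Pax5 (0.92, dim in all groups) and Clec2g in Bank1Pax5 (0.42, dim in all groups). Of the receptors that read these chemokines and interferon gamma (8 of 9 measured), Ifngr1 was higher in both (0.67 and 0.62). Cxcr3 was lower in Pax5 (-1.17) and Ccr3, a Ccl5 receptor of eosinophils, was higher in Bank1Pax5 (1.91).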

How the data were processed

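RNA for the 16 arrays was extracted with Trizol and labelled with biotin, per the labels. Per the submitters' processing notes the authors used RMA from the oligo package, and they deposited log2 intensities per probe set, which were taken here as they stand. RMA draws all arrays to 1 distribution, so each value is relative to the rest of its array. Software versions and the array's genome build are not stated in the labels.

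Of 35556 probe sets, 21789 named 1 gene, 1621 several and 12146 none in the platform annotation, and 91 of them had no current gene record. For 999 genes with more than 1 probe set the highest mean was kept, which left 19938 genes. Differences were tested with limma 3.58.1 in R 4.3.3, two-sided, with 1 mean per group over all 16 arrays, moderated variances and Benjamini-Hochberg adjustment over all genes. A call is an adjusted p under 0.05. A fold is 2 raised to the log2 difference. For arrays, their number limits the precision. The labels call the arrays of a group biological replicates, but the design text names fewer WT mice than WT arrays, so the WT spread may in part be technical. The script was tested on simulated data.

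All 33 genes are named. Values on every WT array, with the lowest, median and highest of the leukemia groups, are given for the 10 brightest in WT among those called lower in both leukemias. Of each further pathway list up to 4 called genes per comparison with WT are named, and of each marker list up to 3, with defining markers added. The genes, their roles and all lists were chosen with earlier results of these data known. Alternatives were each array left out, only the compared groups, the replicate number as a block, array weights, robust moderation with a variance trend, centring on array medians, cyclic loess, probe set means and removal of dim probe sets. Leaving out arrays 2 and 6 of Bank1Pax5 together was added after seeing the data. Promoter windows are the first RefSeq entry of each gene.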

Additional observations from a re-analysis of the deposited data

Results flagged for a closer look

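A single array stood apart from the rest of its group for 5 gene and group pairs of the 99 examined, by a gap test that chance passes in about 1 of 20 groups (4.95 expected here). Ccl3 was 12.22 on array 6 of Bank1Pax5 leukemia, with the next array of that group at 9.06. Ccl4, a chemokine of the same family, was 7.47 on the same array, with the next at 5.83. Il2rb was 8.22 on array 5 of Pax5 leukemia, with the next at 6.49. Klrg1 was 4.97 on array 2 of Pax5 leukemia, below the next at 5.17. Gzmb was 6.14 on array 1 of WT, with the next at 5.70.

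The effect relative to WT differed between the leukemias, by the fit over 16 arrays, for 7 genes. The differences, Bank1Pax5 over Pax5, were 1.33 for Klrk1, 0.53 for Klrc2, 0.44 for Prf1, 1.58 for Ccl5, 0.92 for Eomes, 0.38 for Tbx21 and 0.91 for Txk. None of these calls was made with only the 2 leukemia groups in the fit.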

How the results depend on the processing

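Limits apply to every value here: no hybridisation batch or sex is given, and dim genes have compressed differences. The leukemia groups also vary more than WT. In Pax5 leukemia against WT, members called lower stayed between 16 and 26 under all alternatives and 1 was called higher with array weights. In Bank1Pax5 leukemia 1 member was called higher with dim probe sets removed, with array weights or with only the 2 groups, 2 without arrays 2 and 6, and 0 to 2 with 1 array left out. Between the leukemias the 7 members called higher became 4 with cyclic loess, 1 with array weights, 0 with only the 2 groups, and 0 to 13 with 1 array left out. The replicate numbers did not pair the arrays, since deviations of arrays with the same number correlated from -0.379 to 0.321. With the number as a block, members called were 22 and 15 lower than WT and 0 higher between the leukemias, and further pathway genes called higher were 6, 7 and 3. Those called higher were 19 and 26 with array weights, and with 1 array left out 4 to 10, 6 to 16 and, between the leukemias, 3 to 10. With dim probe sets removed 7 were lower in Bank1Pax5, and with only the 2 leukemia groups 0 were lower and 2 higher. The Pax5 difference of the shared level was -1.60 for receptors and -1.76 for chemokines as means of members. With members dim in every group left out it was -2.38 for granule genes, -2.86 for chemokines and -1.67 for factors, and 1.84 for chemokines between the leukemias. The 10 members dim in every group have no value with dim probe sets removed. Signs turned only for differences that were not called. Against WT these were Il18r1 in Pax5 (-0.41 with the block, -0.65 to 0.56 with 1 array left out) and Il12rb2 (-0.55 to 0.13 with 1 array left out). In Bank1Pax5 they were Klrg1 (-0.0002 with array weights, -0.00082 with the block, -0.044 to 0.07 with 1 array left out), Gzmb (-0.086 to 0.66 with 1 array left out), Nkg7 (0.14 without arrays 2 and 6, -0.60 to 0.25) and Ccl4 (-0.036 with the block, -0.21 without arrays 2 and 6, -0.19 to 0.19). Between the leukemias they were Klrb1c (-0.021 without arrays 2 and 6), Klre1 (-0.0023 with cyclic loess, -0.0043 to 0.04) and Il18rap (0.047 with cyclic loess, 0.74 without arrays 2 and 6, -0.40 to 0.50). The Nkg7 call in Pax5 also ended with cyclic loess and median centring (adjusted p of 0.0524 and 0.0544 by limma). The causes were not tested.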
